A study of Mesocricetus auratus with 6 samples.

Results

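Nucleoporins build the nuclear pore complex, and importins and exportins carry proteins and RNA through it. The genes described here were those whose symbol names a numbered nucleoporin, a karyopherin alpha or beta, a numbered importin or a numbered exportin, together with Tpr, Pom121, Ndc1, Ran, Ranbp1, Rangap1, Tnpo1, Cse1l and Nutf2. Only probe sets annotated with exactly 1 gene symbol were used, and the probe set with the highest mean over the 6 arrays stood for its gene. The genes were thus chosen by symbol, and the probe sets were selected on their mean level. This gave 40 genes, measured by 80 probe sets, out of 12393 genes and 22626 tested probe sets. No probe set with that single symbol was analysed here for Tpr or Nutf2.

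Total RNA was taken from uteri of golden hamsters (Mesocricetus auratus) at day 5 of pregnancy and hybridised to an Affymetrix mouse array. The groups were 3 arrays of the sites where an embryo had implanted and 3 arrays of the uterine wall between such sites, called interimplantation sites, with no treatment in either. The RNA sets came from 3 different animals, per the series' design text, and no source used here says whether equal array numbers share an animal. Each sample was whole tissue, so the implantation arrays could also hold embryo RNA, and a larger number of cells of a type cannot be told apart from more RNA per cell.

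The pore is a ring of many nucleoporins. A Y-shaped complex coats its outer rings, an inner ring lines it, membrane proteins anchor it, and nucleoporins rich in phenylalanine-glycine repeats fill the channel. Cargo crosses bound to importins or exportins, and the small GTPase Ran sets the direction: Ran-GTP in the nucleus releases import cargo and is required for binding of export cargo, and its hydrolysis in the cytoplasm undoes export complexes. Transport capacity and pore number are known to grow in cells that enlarge and divide, and the stroma around an attached blastocyst is known in rodents to proliferate and differentiate into decidua.

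At the implantation site, Ranbp1 and Ran had the largest differences of the 40 genes. Ranbp1, which binds Ran-GTP and promotes its hydrolysis together with Rangap1, was 2.04-fold higher, and Ran itself 1.74-fold. In all, 9 of the 40 genes rose and 0 fell in a limma fit over all probe sets at an adjusted p under 0.05, where 1.36% of all genes were called higher and 1.18% lower. Without adjustment, 16 of the 40 were higher with a p under 0.05 and 0 lower, where 6.14% and 8.67% of all genes were. The 9 were Ranbp1, Ran, the nucleoporins Nup37, Nup85, Nup93 and Ndc1, and the exportins Xpo4, Xpo1 and Cse1l. Of the 40 differences 31 were above 0, which held for 43.8% of all genes, and the median was 0.16 on the log2 scale, where all genes had −0.020. The group of genes was proposed with earlier results of this comparison known, so these counts and medians are a description and not a test of the group.

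All levels are log2 RMA signals of mouse probes, which hamster RNA can mismatch, so levels of different genes are not compared. The array also carries 27 probe sets for Bacillus genes, which have no counterpart in hamster RNA, and the brightest of these averaged 5.79. The mean exceeded this in 16 of the 40 genes, and in 4 of the 9 that rose (Ranbp1, Ran, Nup85 and Nup93). All 40 genes exceeded the median of the Bacillus probe sets (2.68). Whether the brightest of these probe sets marks a background level was not tested. The median difference was 0.29 in the 16 genes above it and 0.13 in the other 24. Over the 40 genes the difference correlated with the mean level (Pearson r = 0.32), where r was 0.049 over all genes. Whether mismatch or dim signal makes differences smaller was not tested, so the order of differences between genes is a description. The array medians lay between 4.55 and 4.57. The 9 hybridisation control probe sets averaged 6.14 to 6.35 on the implantation arrays and 6.37 to 6.90 on the interimplantation arrays. With each array shifted to these controls, the median of all probe sets lay at 0.39 and 18 of the 40 genes were called higher. With the control level as a covariate only Ranbp1 was called. The control level itself separated the groups, so that fit cannot fully part the group from the control level. The directions below are thus relative to most other probe sets.

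**Figure D1:**
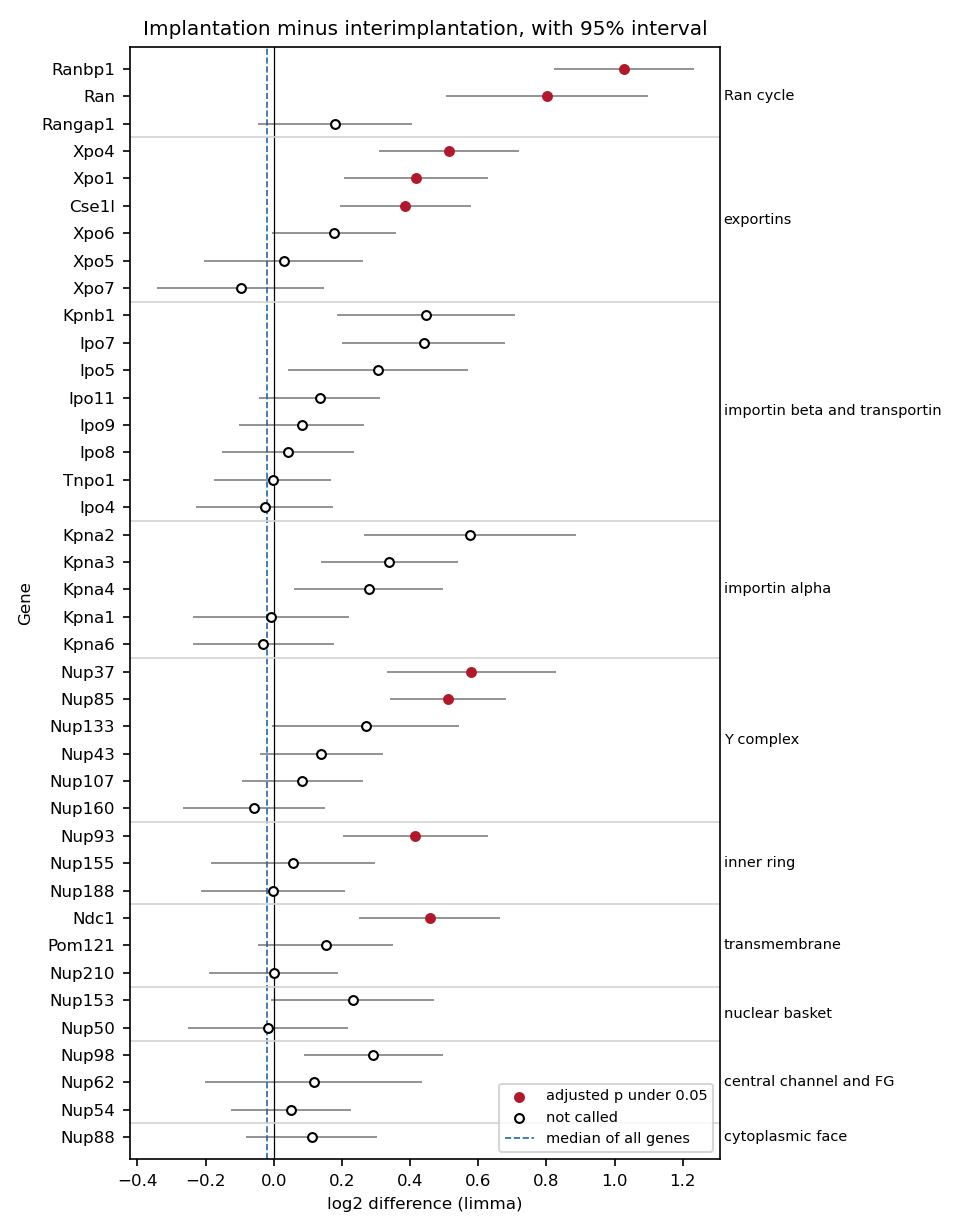
Implantation minus interimplantation differences of the 40 genes by role, in log2 units on the horizontal axis, with 95% intervals from limma. Filled points mark the 9 genes called at an adjusted p under 0.05, and the dashed line is the median of all genes (−0.020). Ranbp1 (1.03) and Ran (0.80) lie farthest to the right, and no gene lies below −0.098.

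Ranbp1 had 8.40, 8.56 and 8.34 at implantation arrays 1, 2 and 3, against 7.28, 7.50 and 7.45 at interimplantation arrays 1, 2 and 3. Every implantation array exceeded every interimplantation array by more than the spread within either group. The difference was 1.03 (SE 0.094, adjusted p = 2.27e-04), and this was the only gene of the 40 that kept its call under each of the 15 alternative settings (highest adjusted p = 0.0181). Ran had 7.52, 7.23 and 7.45 at the implantation sites, against 6.25, 6.80 and 6.73 at the interimplantation sites. There was no overlap, and interimplantation array 1 was the lowest. The difference was 0.80 (SE 0.14, adjusted p = 0.00900).

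Ran was measured by 6 probe sets, of which 3 were called higher, with differences of 0.80, 0.90 and 0.96. Another was at 0.49 (adjusted p = 0.0669), and the remaining ones at 0.038 and 0.028 (adjusted p = 0.900 and 0.939). All 6 were positive. Of these, 5 carry a name ending that marks probes shared with other sequences, the 3 called ones among them. The only probe set without such an ending was the one at 0.038, so the rise of Ran rests on probe sets that may also read related sequences. Rangap1, which activates the GTPase of Ran in the cytoplasm, had 5.76, 5.71 and 5.95 at the implantation sites and 5.50, 5.57 and 5.82 at the interimplantation sites. Its groups overlapped, and the difference of 0.18 (95% interval −0.048 to 0.40) did not pass (adjusted p = 0.495).

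**Figure D2:**
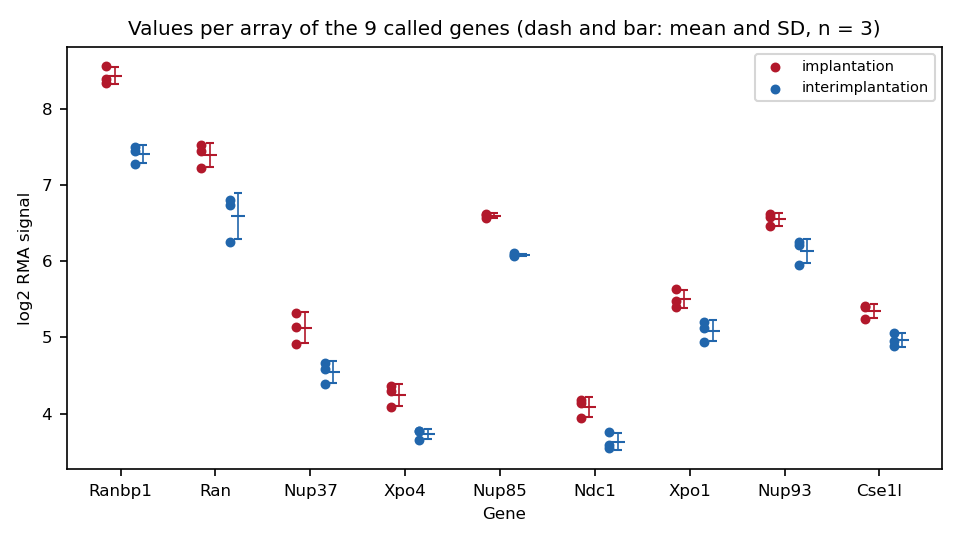
Log2 RMA signal per array of the 9 genes called higher, with the 3 implantation arrays in red and the 3 interimplantation arrays in blue. The dash and bar beside each set of points give the mean and SD (n = 3). In every one of the 9 genes the lowest implantation value lies above the highest interimplantation value.

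Exportins carry cargo out of the nucleus with Ran-GTP, and 3 of the 6 measured rose. Xpo4, which exports the translation factor eIF5A, had 4.36, 4.08 and 4.30 at the implantation sites, against 3.65, 3.77 and 3.78 at the interimplantation sites. The values did not overlap, and the difference was 0.51 (SE 0.094, adjusted p = 0.0130). Cse1l, which returns importin alpha to the cytoplasm after import, had 5.41, 5.24 and 5.40 at the implantation sites, against 5.06, 4.88 and 4.95 at the interimplantation sites. Its difference was 0.39 (SE 0.088, adjusted p = 0.0427).

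Xpo1, the receptor of leucine-rich export signals, had 5.48, 5.63 and 5.40 at the implantation sites, against 4.94, 5.12 and 5.21 at the interimplantation sites. These values were separate, with a difference of 0.42 (SE 0.097, adjusted p = 0.0470). Its 3 probe sets did not move together. A dimmer one was at 0.20 (adjusted p = 0.299), and the dimmest was at −0.24, with all 3 implantation arrays (4.05 to 4.09) below the interimplantation arrays (4.18 to 4.40) and no call (adjusted p = 0.208). The mean of the probe sets of Xpo1 gave 0.12 (adjusted p = 0.424).

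The other exportins did not pass. Xpo6, which exports actin with profilin, had a difference of 0.18 (adjusted p = 0.373) without overlap of the groups. Xpo5, which exports precursor microRNAs, was at 0.029 (95% interval −0.20 to 0.26). Xpo7 had the lowest difference of all 40 genes. Its values were 7.06, 6.70 and 7.01 at the implantation sites and 7.04, 6.86 and 7.17 at the interimplantation sites, a difference of −0.098 (95% interval −0.34 to 0.15, adjusted p = 0.770), with the groups overlapping.

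None of the 8 measured genes of the importin beta and transportin group was called by its brightest probe set, though 3 were higher at an unadjusted p under 0.05. Kpnb1, the importin beta that carries importin alpha and its cargo, had 6.73, 6.90 and 6.81 at the implantation sites, against 6.13, 6.65 and 6.32 at the interimplantation sites. The groups did not overlap, and interimplantation array 1 was the lowest. The difference was 0.45 (SE 0.12, adjusted p = 0.0869), and without interimplantation array 2 it was 0.59 and called (adjusted p = 0.0160). Without each of the other 5 arrays it was not called, and it was smallest without interimplantation array 1 (0.33, adjusted p = 0.143). A dimmer probe set of Kpnb1, named after its values were seen, had 5.55, 5.46 and 5.56 at the implantation sites, against 4.56, 4.72 and 4.76 at the interimplantation sites. It was called, at 0.85 (SE 0.086, adjusted p = 5.45e-04), and Kpnb1 was the only gene of the 40 called by another probe set but not by its brightest. Its 4 probe sets were all positive, and their mean was called as well (0.43, adjusted p = 0.00860). The dimmest ones had mean levels of 2.60 and 2.43, below the median of the Bacillus controls (2.68).

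Ipo7, an import receptor of ribosomal proteins, had 7.16, 7.37 and 6.93 at the implantation sites and 6.76, 6.76 and 6.61 at the interimplantation sites. These did not overlap, and the difference of 0.44 (SE 0.11) narrowly missed the threshold (adjusted p = 0.0633), which it passed without implantation array 3 (0.55, adjusted p = 0.0400) and missed when any other array was left out (adjusted p between 0.0575 and 0.224). Ipo5, also an import receptor of ribosomal proteins, was at 0.31 (adjusted p = 0.271), with interimplantation array 3 (6.73) inside the range of the implantation arrays (6.71 to 6.88). Ipo11 (0.14), Ipo9 (0.082), Ipo8 (0.042), Tnpo1 (−0.0031) and Ipo4 (−0.027) did not pass either. Tnpo1 imports hnRNP proteins, and its 95% interval ran from −0.18 to 0.17. Ipo4 had the lowest difference in this group, with 5.78, 5.73 and 5.84 at the implantation sites and 5.82, 5.66 and 5.95 at the interimplantation sites.

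Importin alpha proteins read the classical import signal and bind importin beta. Of 5 genes, 0 were called and 3 were higher at an unadjusted p under 0.05. Kpna2, abundant in dividing cells, had 4.69, 4.91 and 5.00 at the implantation sites, against 4.39, 4.55 and 3.93 at the interimplantation sites. The groups did not overlap, but interimplantation array 3 lay well below the other arrays of its group, and the difference of 0.58 (SE 0.14) did not pass (adjusted p = 0.0623). Leaving out interimplantation array 1 or 2 gave a call (adjusted p = 0.0452 and 0.0325), and leaving out interimplantation array 3 (0.40, adjusted p = 0.144) or any implantation array (adjusted p between 0.104 and 0.234) did not. Kpna3 was at 0.34 (adjusted p = 0.0908), with 6.85 to 6.91 at the implantation sites, against 6.39 to 6.69 at the interimplantation sites. Its 3 probe sets ran from 0.26 to 0.34. Kpna4, closely related to Kpna3, was at 0.28 (adjusted p = 0.217). Kpna1 and Kpna6, members of another subfamily, were at −0.0077 and −0.031 by their brightest probe sets. For Kpna6 the values were 4.86, 5.03 and 4.83 at the implantation sites and 5.04, 4.97 and 4.79 at the interimplantation sites, which overlapped fully (95% interval −0.24 to 0.18). The dimmer probe sets of these genes were positive and not called, at 0.015 to 0.16 for Kpna1 and 0.14 for Kpna6.

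Within the pore, 4 of 18 measured genes rose, and 14 of the 18 differences were positive. In the Y complex, 2 of 6 rose. Nup85, of the short arm of the Y, had 6.62, 6.57 and 6.61 at the implantation sites, against 6.08, 6.10 and 6.08 at the interimplantation sites. The SD within the groups was 0.029 and 0.014, and the difference of 0.51 (SE 0.077, adjusted p = 0.00461) was many times larger. Its dimmer probe set was at 0.055, with a mean (2.37) below the median of the Bacillus controls (2.68). Nup37, which binds Nup160 in the Y complex, had 5.33, 4.92 and 5.13 at the implantation sites, against 4.59, 4.67 and 4.38 at the interimplantation sites. All implantation values lay higher (difference 0.58, SE 0.11, adjusted p = 0.0205).

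The other genes of the Y complex did not pass. Nup133 was at 0.27 (adjusted p = 0.367) by its brightest probe set, and its 4 probe sets ran from −0.31 to 0.44. Those 2 extremes each separated the groups without overlap, in opposite directions, and neither was called (adjusted p = 0.133 and 0.0892). Nup43 was at 0.14 and Nup107 at 0.084. Nup160, a large scaffold protein of the complex, had 3.07, 3.16 and 3.34 at the implantation sites and 3.14, 3.30 and 3.31 at the interimplantation sites, with overlap and a difference of −0.058 (95% interval −0.27 to 0.15). Members of 1 complex thus ranged from −0.058 to 0.58.

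In the inner ring, Nup93, which links the ring to the channel nucleoporins, had 6.46, 6.62 and 6.58 at the implantation sites, against 5.96, 6.25 and 6.21 at the interimplantation sites. The groups did not overlap, and the difference of 0.42 (SE 0.098) was just inside the threshold (adjusted p = 0.0495). Its partners did not pass. Nup155 was at 0.056 (95% interval −0.19 to 0.30), and Nup188 had 6.29, 6.33 and 6.48 at the implantation sites and 6.23, 6.35 and 6.53 at the interimplantation sites (difference −0.0031, 95% interval −0.22 to 0.21).

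Of the 3 membrane nucleoporins, Ndc1, needed in vertebrates for pore assembly, rose, with 4.15, 3.94 and 4.18 at the implantation sites, against 3.59, 3.55 and 3.76 at the interimplantation sites (difference 0.46, SE 0.095, adjusted p = 0.0287). Its other probe set was at 0.038, with a mean (2.46) below the median of the Bacillus controls (2.68). Pom121, at 0.15, was not called (adjusted p = 0.511). Nup210 had 4.35, 4.28 and 4.13 at the implantation sites and 4.30, 4.26 and 4.21 at the interimplantation sites, a difference of −0.00067 (95% interval −0.19 to 0.19).

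No gene of the channel, the nuclear basket or the cytoplasmic face was called. Nup98, a mobile repeat nucleoporin, had 5.31, 5.51 and 5.52 at the implantation sites, against 5.13, 5.27 and 5.06 at the interimplantation sites. These did not overlap, but the difference of 0.29 (SE 0.094) missed the threshold (adjusted p = 0.157). Of the other channel nucleoporins, Nup62 was at 0.12, with interimplantation arrays from 4.36 to 5.02 on both sides of the implantation arrays. Nup54, its partner, had 4.11, 4.24 and 4.22 at the implantation sites and 4.12, 4.18 and 4.12 at the interimplantation sites, a difference of 0.050 (95% interval −0.13 to 0.23).

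In the basket, Nup153 had 4.66, 4.24 and 4.51 at the implantation sites and 4.35, 4.20 and 4.17 at the interimplantation sites. Implantation array 2 lay inside the range of the other group, and the difference of 0.23 did not pass (adjusted p = 0.376). Nup50, a partner of Nup153 that helps to release import cargo, had 5.02, 4.92 and 5.16 at the implantation sites and 5.26, 5.01 and 4.88 at the interimplantation sites, a difference of −0.017 with overlap. Nup88, of the cytoplasmic face, had 6.47, 6.67 and 6.48 at the implantation sites and 6.35, 6.46 and 6.47 at the interimplantation sites (difference 0.11, adjusted p = 0.648).

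**Figure D3:**
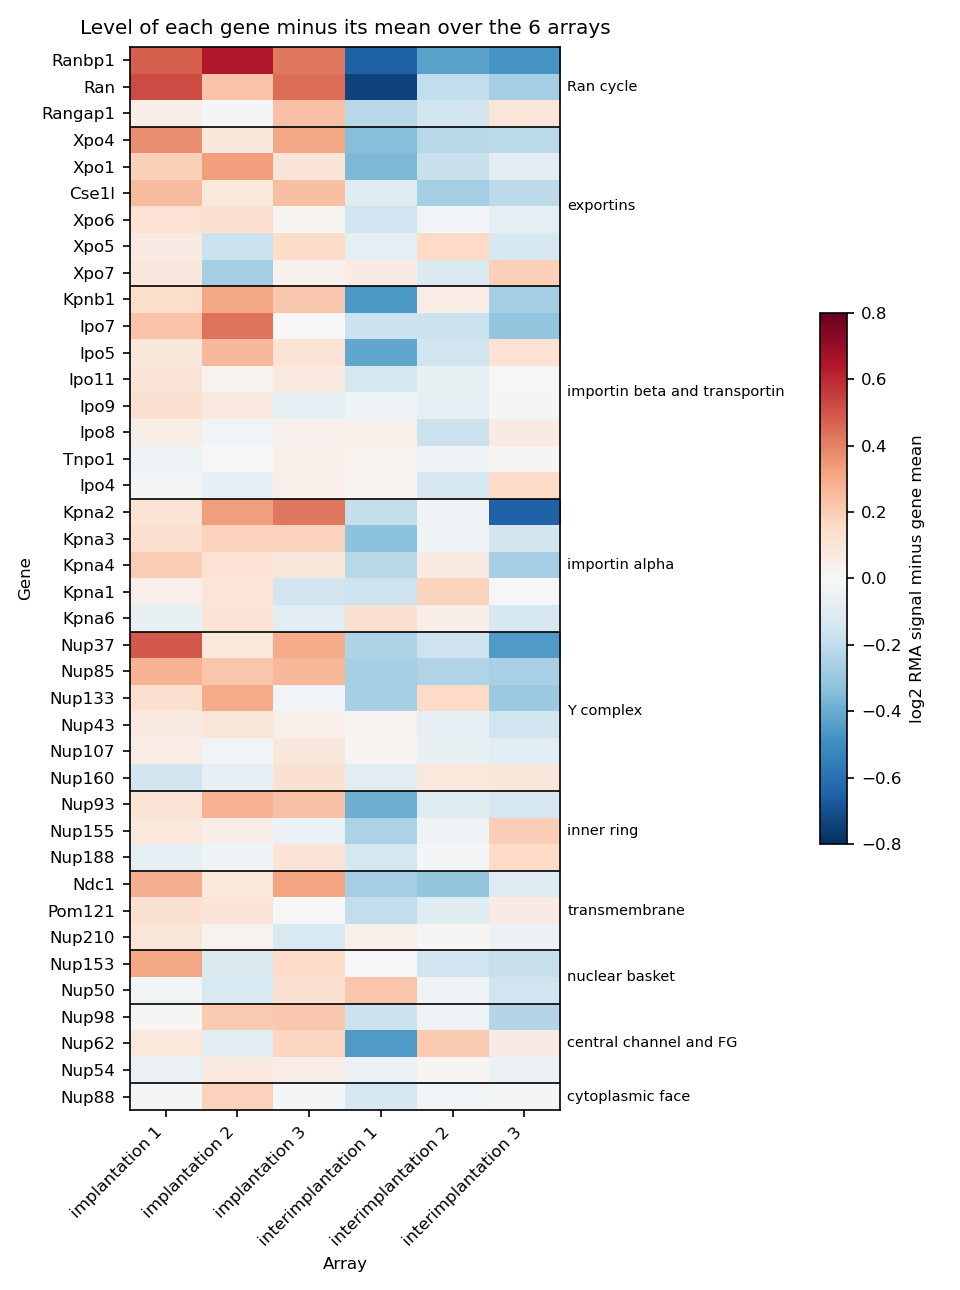
Log2 RMA signal of each of the 40 genes minus its own mean over the 6 arrays, with implantation arrays on the left and interimplantation arrays on the right, ordered by role. Red is above and blue below the gene's mean. Ranbp1 and Ran span the widest range of colour, and interimplantation array 1 holds the lowest value of 18 of the 40 genes.

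The pattern over arrays was shared by many of the genes. The groups did not overlap, with the implantation arrays on top, in 18 of the 40 genes, where this held for 8.02% of all genes. The opposite order was found in 0 of the 40, where it held for 12.1% of all genes. The median of the 40 genes, each centred on its own mean, was 0.098, 0.089 and 0.11 on implantation arrays 1, 2 and 3, against −0.17, −0.059 and −0.099 on interimplantation arrays 1, 2 and 3. Interimplantation array 1 held the lowest of the 6 values in 18 of the 40 genes and in 20.9% of all genes. Without it, the median of the 40 genes was 0.13 and 8 genes were called.

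**Figure D4:**
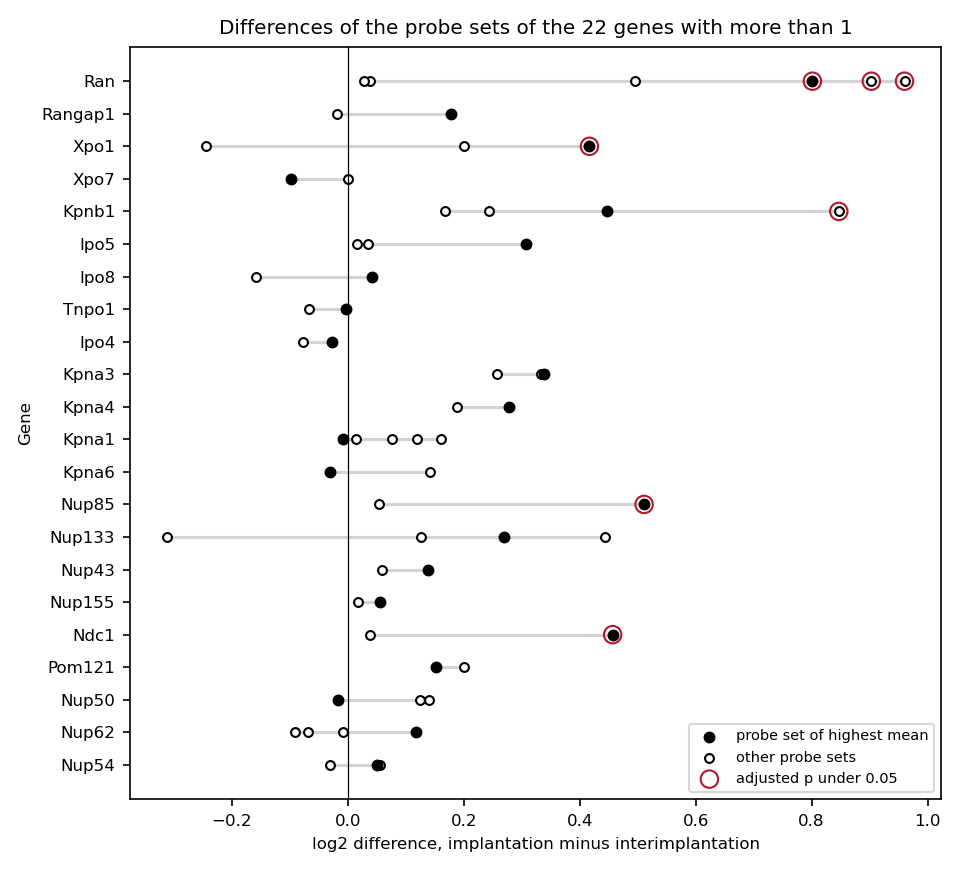
Log2 differences, implantation minus interimplantation, of every probe set of the 22 genes measured by more than 1. Filled points are the probe sets with the highest mean, open points the others, and red rings mark an adjusted p under 0.05. Ran, Nup133, Kpnb1 and Xpo1 have the widest ranges, and in 13 of the 22 genes all probe sets have the same sign.

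Probe sets of the same gene often differed. Of the 22 genes with several, 13 had all differences of the same sign and 9 had both signs. The range between the lowest and the highest difference of a gene had a median of 0.17 and was widest for Ran (0.93), Nup133 (0.76), Kpnb1 (0.68) and Xpo1 (0.66). Over all 80 probe sets, 12 were called higher and 0 lower, where 1.26% and 1.05% of all probe sets were. Without the probe sets whose names end in _a_at, _s_at, _x_at or _f_at, all treated as shared, 33 genes could be measured and 4 were called. Of the other 5, Nup85, with names ending in _a_at only, had no probe set left, and Ran was read by its probe set at 0.038. Whether the probe sets left out read other genes was not tested. Cse1l, Nup93 and Xpo1 kept their probe sets and differences, with adjusted p between 0.0522 and 0.0595 in the smaller table.

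Other genes of the pore and of RNA export, which the selection by name leaves out, were mixed. Of 38 listed, 33 were measured, 4 rose, 0 fell, and the median was 0.044. Eny2, of the complex that couples transcription to mRNA export, averaged 5.84 ± 0.16 at the implantation sites and 5.12 ± 0.34 at the interimplantation sites (SD, n = 3 each), without overlap (difference 0.72, SE 0.15, adjusted p = 0.0253). Sec13, shared by the Y complex and vesicle coats, rose by 0.50 (adjusted p = 0.0295). Alyref, an mRNA export adaptor, rose by 0.50 (adjusted p = 0.0112), and Nxt1, the partner of the mRNA export receptor Nxf1, by 0.39 (adjusted p = 0.0378). Nxf1 itself was at 3.3e-04 (adjusted p = 0.999). Ranbp2, the large cytoplasmic nucleoporin that binds Ran, was at 0.093, and Rcc1, the exchange factor that loads Ran with GTP, at 0.044. Neither passed (adjusted p = 0.739 and 0.916). Among the components of the Ran cycle, Ran and Ranbp1 were thus called, and Rangap1, Rcc1 and Ranbp2 were not. Whether the differences of these genes differ from each other was not tested.

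Several marker lists moved beside these genes, and their part in the results was not tested. Of 11 measured proliferation markers 4 rose and 0 fell, and their summed log2 level ran from 55.5 to 56.9 on the implantation arrays, against 52.4 to 53.1 on the interimplantation arrays. Mcm7 of the replicative helicase (0.92, adjusted p = 0.00116) and the polymerase clamp Pcna (0.80, adjusted p = 0.00179) led them, while Mki67 and Top2a were at 0.023 and 0.027. Only 1 of the 11, Pcna, exceeded the brightest Bacillus control. Of the 11 differences 2 were negative, those of Mcm6 (−0.041) and Ccna2 (−0.18, adjusted p = 0.368). For Ccna2 every implantation array lay below every interimplantation array. Of 12 measured trophoblast and embryo markers 0 were called. Their summed level was 48.5 to 48.8 on the implantation arrays and 49.0 to 50.3 on the interimplantation arrays, and only Hand1 exceeded the brightest Bacillus control. The sums for 8 epithelial markers were 37.2 to 38.0 on the implantation arrays and 38.9 to 40.0 on the interimplantation arrays, with 1 called lower. For 8 smooth muscle markers they were 44.0 to 46.3 on the implantation arrays and 48.4 to 50.6 on the interimplantation arrays. Of these, 2 were called lower, Actg2 (−1.74) and Tagln (−1.26). Among the 6 not called, Des (0.13) and Myh11 (0.059) were positive and the rest negative, with Acta2 at −0.24. Of 9 stromal markers 0 were called, with 55.3 to 56.5 on the implantation arrays and 55.4 to 56.1 on the interimplantation arrays, and 6 of the 9 exceeded the brightest Bacillus control. Endothelial, leukocyte and erythroid markers (6, 7 and 2 measured) had 0 calls.

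**Figure D5:**
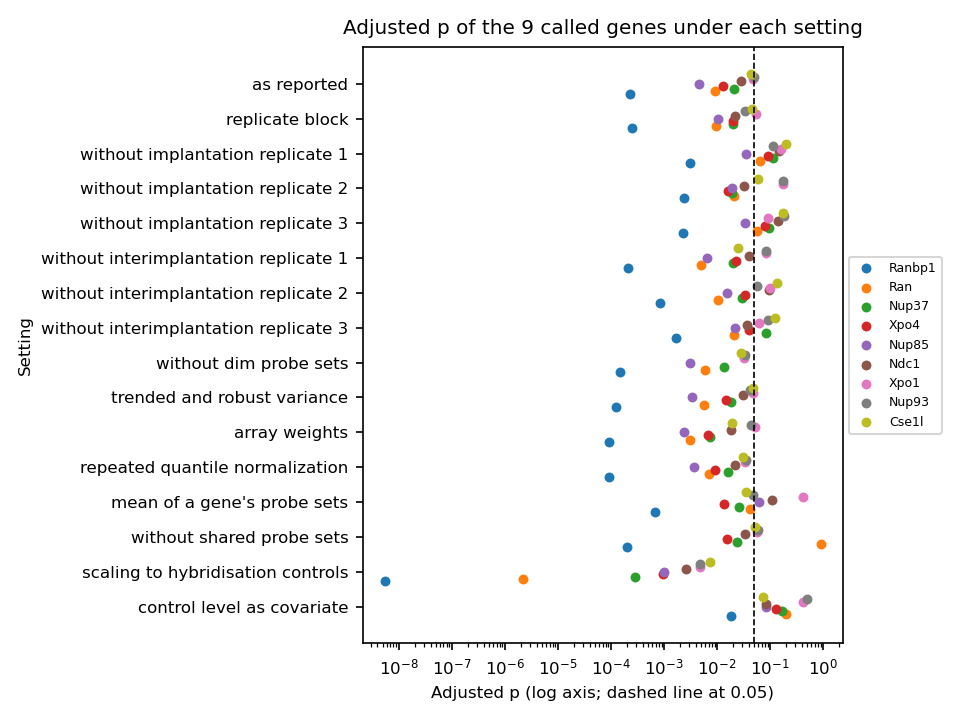
Adjusted p on a log axis of the 9 called genes under the reported fit (top row) and 15 alternative settings, each gene in its own colour. The dashed line is at 0.05. Ranbp1 stays left of it in every row (highest 0.0181), while Xpo1 and Nup93 lie right of it without any of the 6 arrays.

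The calls differed in which arrays could be left out. A fit without an array also has fewer arrays, so a lost call does not by itself show that a gene depends on that array. Over all probe sets, 284 were called higher with all arrays, against 117, 172 and 154 without implantation array 1, 2 and 3. Nup85 kept its call without any array and lost it with the mean of its probe sets (adjusted p = 0.0628) and with the covariate of the control level (adjusted p = 0.0831). Ran was lost without implantation array 1 or 3 (adjusted p = 0.0657 and 0.0557), as were Xpo4 (adjusted p = 0.0913 and 0.0790) and Nup37 (adjusted p = 0.115 and 0.0945). Nup37 was also lost without interimplantation array 3 (adjusted p = 0.0849). Ndc1 was lost when implantation array 1 or 3 (adjusted p = 0.145 and 0.139) or interimplantation array 2 (adjusted p = 0.0951) was left out, and with the mean of its probe sets (adjusted p = 0.107). Cse1l kept its call when interimplantation array 1 was left out and lost it without each of the other 5 arrays (adjusted p between 0.0602 and 0.202). Nup93 and Xpo1 were lost whichever of the 6 arrays was left out (adjusted p from 0.0576 to 0.180 for Nup93 and from 0.0604 to 0.178 for Xpo1). Their differences then ran from 0.32 to 0.47 for Nup93 and from 0.34 to 0.48 for Xpo1, where all 6 arrays gave 0.42 for each. All 9 genes had positive differences under every setting that measured them.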

How the data were processed

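The deposited table held log2 values, 1 per probe set and array, which the authors made with Partek 6.6 and RMA (background correction, normalization between arrays and summary per probe set), as the submitters' processing notes name them. The log base is not stated and was taken as 2 from the usual RMA output. The table holds 22690 probe sets, and the 22626 that are not among its 64 controls entered the test, dim ones included. Symbols are those of the platform annotation (20380 probe sets with 1 symbol), and 39 of the 40 also occur among the hamster genes of RefSeq (assembly BCM_Maur_2.0). No sequence or genome was used.

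The test was limma 3.58.1 under R 4.3.3 (lmFit, eBayes, group as the only term, two-sided), with Benjamini-Hochberg adjustment over all 22626 probe sets. Differences are implantation minus interimplantation with the standard error (SE), and SDs are over n = 3 arrays. The number of arrays limits the precision. Any gene of the group could be named. Array values were given for called genes and for the highest and lowest difference of each role. The genes, lists and settings were chosen with earlier results of these data known. The calculation was tested on simulated data. Alternatives were a replicate block, leaving out each array, leaving out dim or shared probe sets, a trended and robust variance, array weights, repeated quantile normalization, averaging each gene's probe sets, and scaling to, or a covariate from, the hybridisation controls.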

Additional observations from a re-analysis of the deposited data

How the results depend on the processing

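The 9 genes called higher became 2 to 8 when 1 array was left out, with 2 without implantation array 1, 3 without implantation array 3 and 5 without interimplantation array 3. They became 4 without shared probe sets, 18 with scaling to the hybridisation controls and 1 with their level as covariate. No gene of the group was called lower under any of the 15 settings. At an unadjusted p under 0.05, limma also found 0 lower by the brightest probe sets. Over all 80 probe sets of the group it found 26 higher and 2 lower, where 1273 and 1890 of all 22626 were. The 2 lower ones were dimmer probe sets of Nup133 (−0.31) and Xpo1 (−0.24). The median difference of 0.16 became 0.12 when each gene's probe sets were averaged, and 0.57 with the control scaling, which raises every difference by the same amount, so that the gap to the median of all probe sets (0.18) was the same. Over 18 hybridisation control probe sets the groups overlapped (6.45 to 6.77 on the implantation arrays and 6.75 to 7.27 on the interimplantation arrays).

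Over all probe sets, 284 were higher and 238 lower. Leaving out 1 array gave 117 to 329 higher and 88 to 401 lower. With averaged probe sets per gene, which tests fewer features, 129 were higher and 109 lower. Without shared probe sets there were 138 and 96, with the control scaling 1311 and 14, and with the control covariate 51 and 100. Array weights gave 363 lower. The causes of these changes were not tested.

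The replicate number as a block called 10 genes of the group, 8 of them among the 9. Xpo1 was lost (adjusted p = 0.0541), and Ipo7 and Kpnb1 were gained (adjusted p = 0.0334 and 0.0363). Arrays of equal number did not deviate together over all probe sets (correlations −0.090, 0.071 and −0.028). Whether they share an animal is not settled by this.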
